A study of Mus musculus with 12 samples.

Results

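The pluripotency factors of the epiblast, the cells of the blastocyst that go on to form the fetus, were followed through early blastocyst maturation with and without inhibition of p38-MAPK. The set holds 10 genes (Pou5f1, Nanog, Sox2, Klf2, Klf4, Klf5, Esrrb, Zfp42, Prdm14, and Tdgf1). They were chosen by symbol, and all 10 were found among the 34245 genes of the expression table. Embryos of an F1 hybrid cross (C57Bl6 x CBA/W) were cultured in KSOM with amino acids until E3.5. Pools of 30 blastocysts were then moved into solvent (control (DMSO)) or into medium holding the p38-MAPK inhibitor SB220025 at 20 µM (p38-MAPKi). They were collected at E3.5 + 4 h, + 7 h, or + 10 h. Each of the 6 groups had 2 libraries of poly(A) RNA, which gives 12 libraries. Whole embryos were pooled, so the trophectoderm (TE) and the primitive endoderm (PrE) are in every library beside the epiblast, and fewer epiblast cells cannot be told apart from less RNA per cell. The same holds for all values below.

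Depth lay between 11242313 reads in p38-MAPKi replicate 1 of the + 7 h time point and 24457311 reads. That library had a read for 13995 genes, against 16337 to 17641 genes in the other libraries. Values are RPKM, the reads of a gene scaled to the length of its exons and to the reads of the library, and differences are on the log2 scale. A gene was called when its adjusted p-value in limma was below 0.05 over all genes tested in that comparison. With 2 libraries in a group, a difference had to be large against the spread to be called.

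OCT4 (encoded by Pou5f1) and SOX2 bind DNA side by side and, with NANOG, form the core of the network that keeps the epiblast pluripotent. KLF2, KLF4, and KLF5 are zinc finger proteins of one family that overlap in function, and ESRRB is an orphan nuclear receptor that acts with them in the naive state. PRDM14 holds down FGF signaling and DNA methylation, REX1 (encoded by Zfp42) is a widely used marker of naive cells, and CRIPTO (encoded by Tdgf1) is a cell surface co-receptor for NODAL. In the inner cell mass (ICM) NANOG comes to mark the epiblast and GATA6 the PrE. Pou5f1 is still transcribed outside the epiblast at this stage, and Klf5 is expressed in the TE as well.

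The DNA in front of these genes was searched for the letters that products of the set are known to bind. The 3 stretches printed here are those in which the octamer core TTTGCAT, bound by OCT4, was found. The search covered 250 bases before and 50 bases after each RefSeq transcript start (GRCm38.p6), on both strands, and 8 of the 10 genes had such a window. The octamer core was in the windows of Nanog, Sox2, and Zfp42 and in 4.63% of all 32851 windows. The longer form TTTGCATNACAA, in which a SOX site follows the octamer, includes the shorter one. It was in 12 windows (0.0365%) and among the members in that of Nanog only, where it begins 75 bases before the start. The KLF box GGGNGTGG was in the windows of Nanog, Pou5f1, Zfp42, and Tdgf1 and in 17.6% of all windows. A match is a run of letters and not a measured binding site. The lines run 5′ to 3′ along the strand of the gene, and capitals mark the match. The Nanog stretch is chr6:122707384-122707455 (plus strand), the Sox2 stretch chr3:34649866-34649932 (plus strand, with the octamer on the opposite strand), and the Zfp42 stretch chr8:43307158-43307224 (minus strand).
Nanog: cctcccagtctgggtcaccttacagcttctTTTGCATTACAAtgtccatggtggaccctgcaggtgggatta
Sox2: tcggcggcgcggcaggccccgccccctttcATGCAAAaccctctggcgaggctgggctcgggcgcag
Zfp42: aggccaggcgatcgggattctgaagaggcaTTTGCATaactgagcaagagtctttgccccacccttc

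All 10 genes were read in control blastocysts. Pou5f1 (chr17:35506018-35510772) was the highest, at 410 ± 38.8 RPKM over the 6 control libraries (SD, n = 6), and ranked 49 of the 10708 genes whose mean was above 1 RPKM. Klf5 followed at 179 ± 14.1 RPKM, Nanog (chr6:122707489-122714633) at 122 ± 12.8 RPKM, and Zfp42 at 74.6 ± 5.68 RPKM. The lowest control value of each of these 4 genes was above the highest value of the next, so their order held in all 6 control libraries.

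The middle of the range was less ordered. Klf2 had 43.5 ± 6.54 RPKM and Sox2 (chr3:34650405-34652461) 40.2 ± 3.45 RPKM, and their libraries overlapped. Klf4 (chr4:55527143-55532466) had 19.2 ± 2.75 RPKM, Tdgf1 17.9 ± 4.68 RPKM, and Esrrb 14.8 ± 1.38 RPKM, and again the neighbours overlapped, with Klf4 above Tdgf1 in 3 of 6 libraries. Prdm14 was apart from the rest at 1.96 ± 0.683 RPKM. Esrrb, the next above it, was higher in 6 of 6 libraries.

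**Figure D1:**
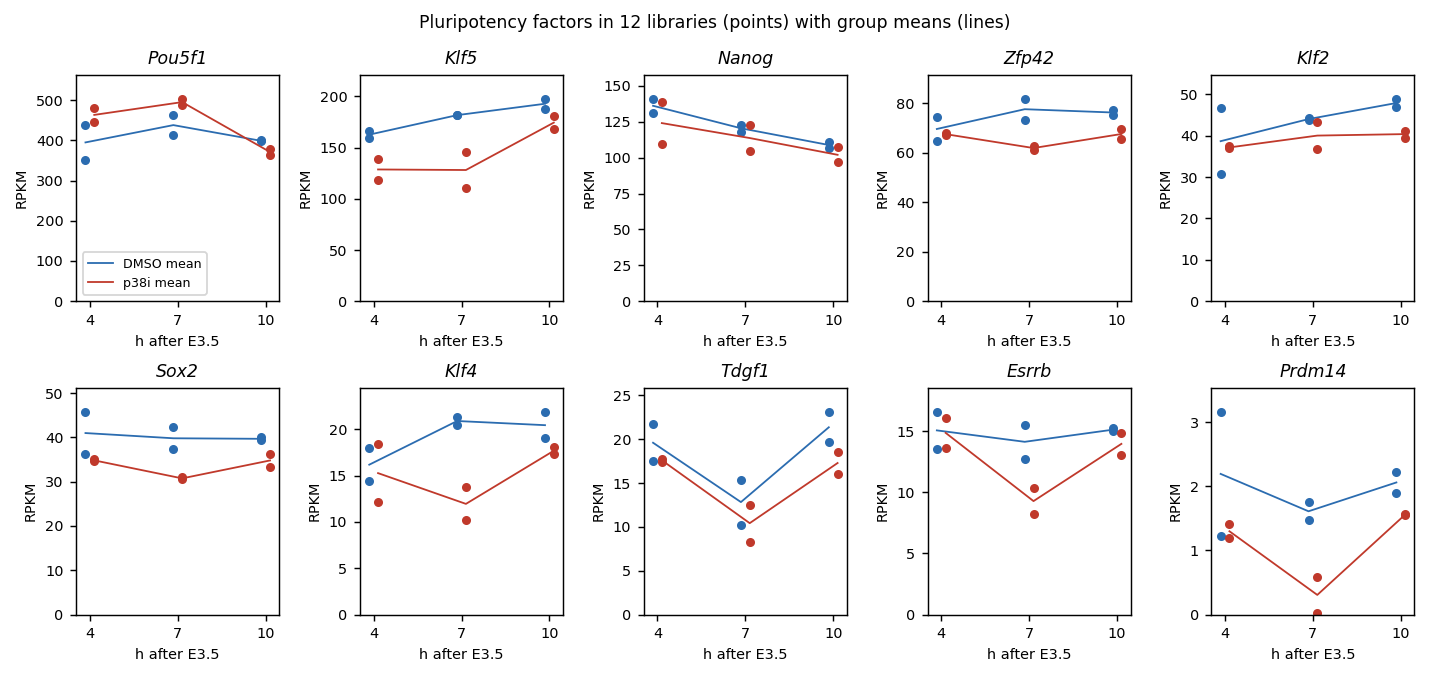
RPKM (linear axis from 0) of the 10 pluripotency factors at 4, 7, and 10 h after E3.5, with a point for each of the 12 libraries and a line through the means of control (DMSO, blue) and p38-MAPKi (p38i, red). Klf4, Esrrb, and Prdm14 have their lowest points in p38-MAPKi at + 7 h, and Tdgf1 is low in both treatments at that time.

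Counting limits touch a few members. Sox2ot lies over Sox2 on the same strand and had 0 to 14 reads a library, against 716 to 1918 reads for Sox2, and Gm19553 lies opposite Pou5f1 and had 0 to 4 reads against 12713 to 24408. The values of Klf5 rest on 1721 bases of exon, which end at position 99313405 of chromosome 14, where the transcript of GENCODE M21 runs on to 99315036 and is 3352 bases long. The remainder of its 3′ UTR was not part of the count, so the level of Klf5 belongs to that shorter model. Whether reads that map to related sequences elsewhere were shared out is not given in the sources used here.

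The time course in control blastocysts asked how these mRNAs move as the blastocyst matures without inhibitor. No member was called between any 2 control time points by limma. Across all tested genes, 0.492% were called from + 4 h to + 7 h, 0.0552% from + 7 h to + 10 h, and 0.471% from + 4 h to + 10 h. At an unadjusted p below 0.05 there were 2, 1, and 3 of the 10 members, against 4.79%, 3.79%, and 15.2% of all genes.

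Nanog had lower values at each later time. Its libraries had 131 and 141 RPKM at + 4 h, 118 and 123 RPKM at + 7 h, and 111 and 107 RPKM at + 10 h. The groups did not overlap at either step. From + 4 h to + 10 h the difference was -0.32 ± 0.10 (log2, SE; 95% interval -0.55 to -0.10; adjusted p = 0.195 in limma), and its adjusted p was between 0.0173 and 0.998 over the alternatives, with the lowest in limma-voom on the reads.

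Tdgf1 had its lowest control values in the middle of the series. Its control libraries had 17.5 and 21.7 RPKM at + 4 h, 15.4 and 10.3 RPKM at + 7 h, and 23.1 and 19.6 RPKM at + 10 h. Both values at + 7 h were thus below all 4 values at the other times. The difference was -0.63 ± 0.19 from + 4 h to + 7 h (log2, SE; adjusted p = 0.139) and 0.76 ± 0.20 from + 7 h to + 10 h (adjusted p = 0.920). Without control replicate 1 at + 7 h, which had the higher value, the differences were -0.92 (adjusted p = 0.0232) and 1.05 (adjusted p = 0.00723). Without control replicate 2 at + 7 h they were -0.34 and 0.47, and neither was called. The p38-MAPKi libraries had the same shape, with 17.8 and 17.4 RPKM, then 12.5 and 8.33 RPKM, then 16.04 and 18.54 RPKM.

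The KLF genes were higher at the end than at the start of the control series. Klf4 had 14.4 and 18.0 RPKM at + 4 h, 20.5 and 21.3 RPKM at + 7 h, and 19.1 and 21.9 RPKM at + 10 h. From + 4 h to + 10 h the difference was 0.34 ± 0.14 for Klf4 (adjusted p = 0.299), 0.25 ± 0.10 for Klf5 (adjusted p = 0.283), and 0.34 ± 0.17 for Klf2 (adjusted p = 0.354). Without control replicate 2 at + 4 h, Klf2 was called (0.64, adjusted p = 0.0159) and so was Klf4 (0.50, adjusted p = 0.0396). Without control replicate 1 at + 4 h, the differences were 0.039 for Klf2 and 0.18 for Klf4, and neither was called, so both depended on which control was kept.

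The other members gave less. Sox2 differed by -0.04 (95% interval -0.32 to 0.25), Pou5f1 by 0.02 (-0.23 to 0.28), and Esrrb by 0.01 (-0.29 to 0.31) from + 4 h to + 10 h, so a change of much over 0.3 on the log2 scale was outside these intervals. Zfp42 differed by 0.14 and Prdm14 by 0.06. The median over all tested genes was itself 0.14 in this comparison, and with each library centred on its median 3 members were above 0 instead of 8. All libraries of the later time lay above those of the earlier in 2, 4, and 4 members (from + 4 h to + 7 h, from + 7 h to + 10 h, and from + 4 h to + 10 h), against 25.3%, 18.3%, and 42.3% of all genes. They lay below in 2, 2, and 1 members, against 3.69%, 12.4%, and 8.06%.

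**Figure D2:**
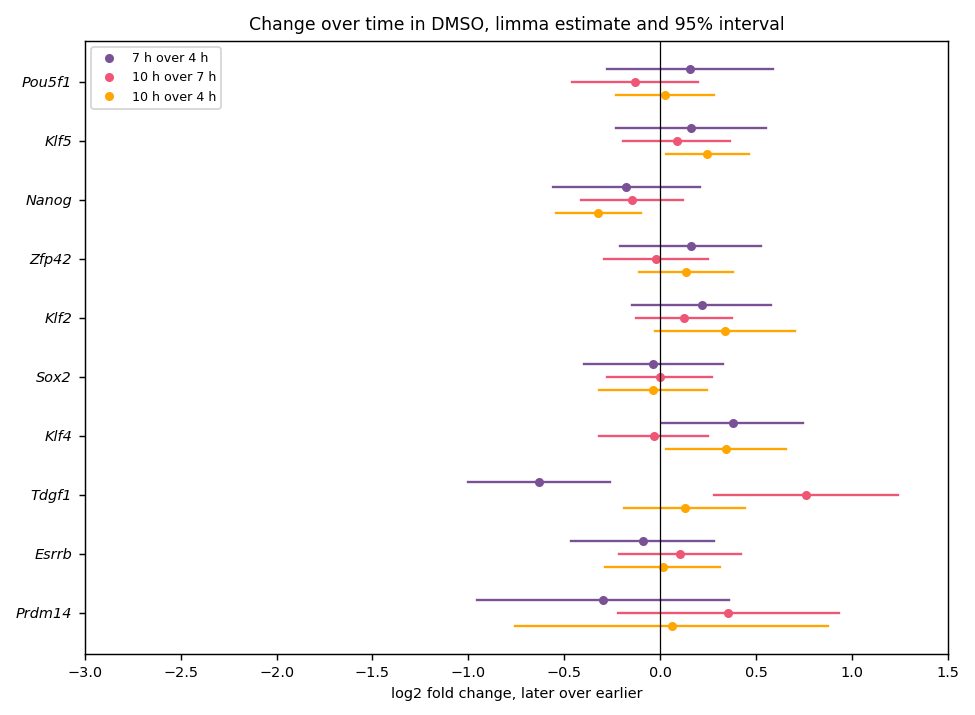
Log2 fold change (later over earlier) of the 10 pluripotency factors in control blastocysts between each pair of times, with the limma estimate (point) and its 95% interval (line). Tdgf1 is at -0.63 and then 0.76, Nanog is below 0 in all 3 comparisons, and no gene was called.

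The question in the rest of the data was whether p38-MAPKi altered these mRNAs. At E3.5 + 4 h, no member was called by limma, where 0.909% of all genes were, and no member had an unadjusted p below 0.05 with a lower value, against 3.03% of all genes. The differences of 9 of the 10 members were below 0, with a median of -0.12, beside 0.07 for all genes, of which 40.0% were below 0. Both values turned on control replicate 2, without which 3 members were below 0 and the median was 0.058. Of the 10, Sox2 and Klf5 had both p38-MAPKi libraries below both controls (13.7% of all genes) and Pou5f1 had both above (26.8% of all genes). The other 7 overlapped.

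Klf5 had 160 and 166 RPKM in controls and 139 and 118 RPKM in p38-MAPKi at + 4 h, a difference of -0.34 ± 0.20 (adjusted p = 0.626). Sox2 had 36.3 and 45.7 RPKM in controls and 35.0 and 34.6 RPKM in p38-MAPKi (-0.23 ± 0.20, adjusted p = 0.764). Pou5f1 had 350 and 439 RPKM in controls and 446 and 480 RPKM in p38-MAPKi (0.24 ± 0.22, adjusted p = 0.765). The control pair alone was as wide apart as these differences for Sox2 and Pou5f1. Nanog had 131 and 141 RPKM in controls and 109 and 139 RPKM in p38-MAPKi (-0.14 ± 0.20).

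E3.5 + 7 h held the lowest values of the series for 7 of the 10 members, and each was in a p38-MAPKi library. These were Klf4, Esrrb, and Prdm14 in replicate 1, and Klf5, Zfp42, Sox2, and Tdgf1 in replicate 2. The share of all genes with their lowest value in a p38-MAPKi library at + 7 h was not counted, so this count cannot set the members apart from other genes. No member was called by limma, against 2.13% of all genes. That background rests on single libraries, since the 233 calls became 0 without control replicate 2 and 2919 without p38-MAPKi replicate 2. The median difference was -0.35, beside -0.14 for all genes, and 9 of 10 members were below 0, against 59.9% of all genes. With each library centred on its median this became 7 of 10, Nanog, Klf2, and Pou5f1 being above 0, and with quantile normalization or the length trend removed it became 10 of 10. In 7 members both p38-MAPKi libraries lay below both controls (38.7% of all genes) and in Pou5f1 both lay above (23% of all genes), and in Nanog and Tdgf1 they overlapped. Replicate 2 of p38-MAPKi alone was below both controls in 9 members (45.8% of all genes), and replicate 1, the shallow library, in 7 (55% of all genes). The unadjusted p was below 0.05 for 4 members that were lower (Klf4, Klf5, Esrrb, and Prdm14), against 17.7% of all genes.

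Klf4, a reprogramming factor, came nearest to a call. It had 20.5 and 21.3 RPKM in controls and 10.2 and 13.7 RPKM in p38-MAPKi at + 7 h. Each p38-MAPKi value was thus below every control value of the whole series, which began at 14.4 RPKM. The difference was -0.82 ± 0.20 (log2, SE; 95% interval -1.28 to -0.36; adjusted p = 0.0578 in limma). The adjusted p for Klf4 lay between 0.00309 (without p38-MAPKi replicate 2, with a difference of -1.04) and 0.392 (without control replicate 2, -0.79) over the alternatives. Without p38-MAPKi replicate 1 the difference was -0.61 and was not called. It was below 0.05 with all 12 libraries in one fit (0.0179), with at least 10 RPKM (0.0207), with limma-voom on the reads (0.0293), and with 5 RPKM added (0.0463), and it was above 0.05 with median centring (0.0888), quantile normalization (0.0721), and removal of the length trend (0.107).

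Esrrb had 12.8 and 15.5 RPKM in controls and 8.21 and 10.4 RPKM in p38-MAPKi (-0.61 ± 0.21, adjusted p = 0.107). Klf5 had 182 and 182 RPKM in controls and 146 and 110 RPKM in p38-MAPKi (-0.52 ± 0.19, adjusted p = 0.123). In both genes the inhibitor libraries lay below both controls. For Klf5 the inhibitor pair was spread (SD 25.3 RPKM, against 0.286 RPKM in controls). For Esrrb both pairs were spread (SD 1.53 RPKM in p38-MAPKi and 1.94 RPKM in controls), and the gap between them was narrow. With all 12 libraries in one fit, which called 2586 genes at this time, Klf5 had an adjusted p of 0.0257 and Esrrb of 0.0267. Without p38-MAPKi replicate 2, Esrrb was called (-0.78, adjusted p = 0.0222), and without p38-MAPKi replicate 1 its difference was -0.44 and was not called.

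Sox2 had 42.3 and 37.3 RPKM in controls and 31.0 and 30.5 RPKM in p38-MAPKi at + 7 h (-0.37 ± 0.17, adjusted p = 0.192). Zfp42 had 81.9 and 73.5 RPKM in controls and 62.8 and 61.1 RPKM in p38-MAPKi (-0.32 ± 0.17, adjusted p = 0.235). In both genes the inhibitor libraries were close together and under the controls. Klf2 had 44.2 and 43.8 RPKM in controls and 43.2 and 36.9 RPKM in p38-MAPKi (-0.14 ± 0.17, adjusted p = 0.603).

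Nanog and Pou5f1 did not share this pattern. Nanog had 118 and 123 RPKM in controls and 123 and 105 RPKM in p38-MAPKi, and its difference was -0.09 with a 95% interval of -0.48 to 0.30 (adjusted p = 0.759). Pou5f1 had 412 and 463 RPKM in controls and 503 and 487 RPKM in p38-MAPKi, with a difference of 0.18 and an interval of -0.24 to 0.59 (adjusted p = 0.534). The sign for Pou5f1 turned with quantile normalization (-0.21) and with the length trend removed (-0.015). Tdgf1 differed by -0.30 with an interval of -0.91 to 0.31.

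Prdm14 was the least abundant member and had few reads. Its controls had 95 and 88 reads at + 7 h (1.75 and 1.47 RPKM), and p38-MAPKi had 0 and 26 reads. For 0 reads the table holds a placeholder worth 0.9 of a read, and 3 reads in that library would be 0.104 RPKM. The fitted difference of -3.58 (adjusted p = 0.15) depends on this placeholder and is not a size. Summed over the pair, 26 reads stood against 183, which at these depths is 4.54-fold lower (95% exact conditional interval 3.00 to 7.14, counting error only). The sums at the other times were 154 against 202 reads at + 4 h (1.70-fold lower, 1.38 to 2.12) and 186 against 222 reads at + 10 h (1.31-fold lower, 1.07 to 1.60). These intervals leave out the spread between pools, which was 54 against 148 reads in the controls at + 4 h. Without p38-MAPKi replicate 2 at + 7 h, Prdm14 was called (adjusted p = 7.6e-06) on the placeholder alone.

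**Figure D3:**
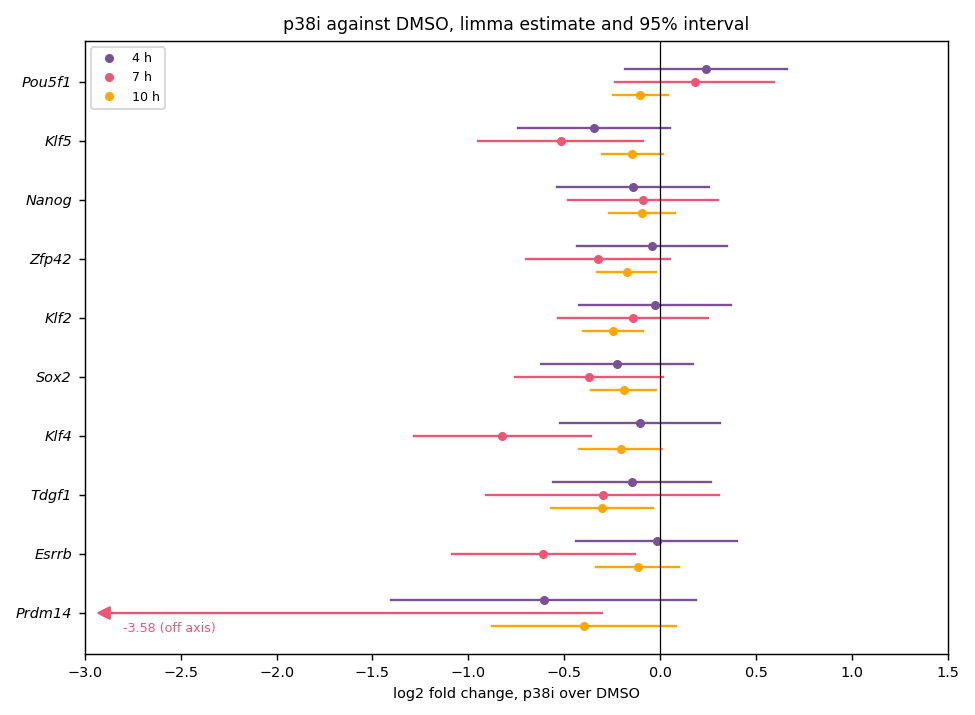
Log2 fold change (p38-MAPKi over control) of the 10 pluripotency factors at 4, 7, and 10 h after E3.5, with the limma estimate (point) and its 95% interval (line, drawn from -2.9 where it runs lower). Klf4 at + 7 h is at -0.82, Prdm14 at + 7 h is off the axis at -3.58 and rests on a placeholder for 0 reads, and Pou5f1 is above 0 at + 4 h and + 7 h; no gene was called.

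The p38-MAPKi libraries at + 7 h differed from their controls along gene length, which touches every difference at that time. Over all tested genes the median difference was 0.44 for the 1333 genes with up to 1500 bases of exon, 0.08 for the 2628 genes of 1500 to 3000 bases, -0.18 for the 4137 genes of 3000 to 6000 bases, and -0.45 for the 2807 genes above 6000 bases. In the class of 1500 to 3000 bases were 8 members, and 7 of them were below its median of 0.08. Klf5 is in this class by the 1721 bases counted. Its GENCODE M21 transcript of 3352 bases would fall in the class of 3000 to 6000 bases. Klf4 has 3049 bases and Esrrb 6047 bases. With the length trend removed, the difference at + 7 h was -0.91 for Klf4, -0.81 for Klf5, -0.60 for Sox2, -0.59 for Zfp42, and -0.45 for Esrrb. That of Esrrb was smaller than before, and those of the other 4 genes were larger. The corrected value of Klf5 rests on the 1721 bases counted and not on its full transcript. The part of RNA quality or library preparation in this trend was not tested.

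**Figure D4:**
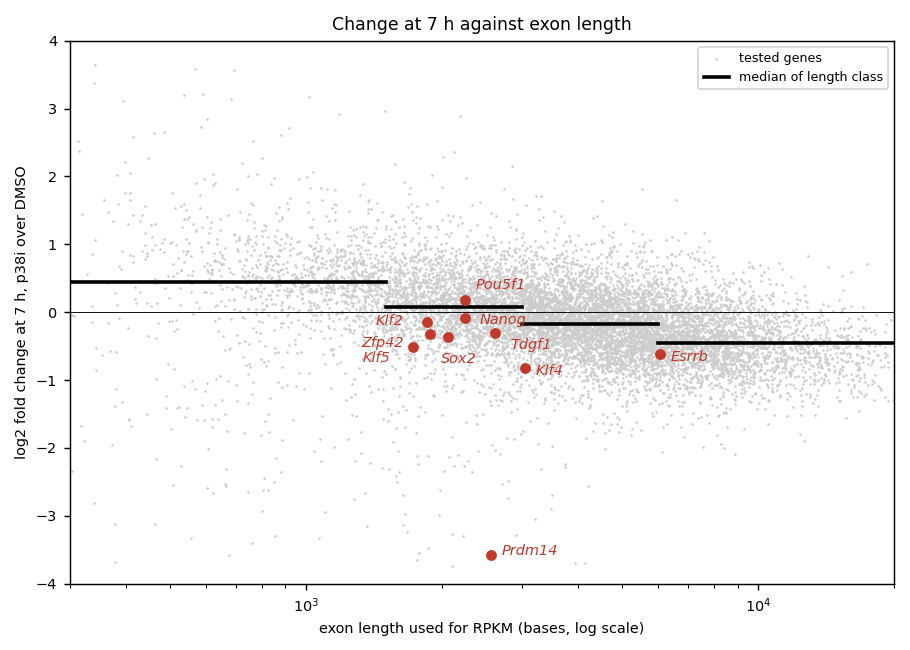
Log2 fold change at E3.5 + 7 h (p38-MAPKi over control) against exon length in bases (log axis) for the tested genes (gray, those within the axes), with the median of 4 length classes (black bars) and the 10 pluripotency factors in red. The bars step from 0.44 to -0.45, and Klf4 and Klf5 (drawn at the 1721 bases counted) lie under the bar of their class while Pou5f1 lies above.

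By E3.5 + 10 h the differences were small, and the libraries were tight. No member was called by limma, against 0.803% of all genes. All 10 members were below 0 (54.3% of all genes), with a median of -0.18 beside -0.02 for all genes, and this count was 10 of 10 as well with median centring, quantile normalization, and the length trend removed. In 9 members both p38-MAPKi libraries lay below both controls, and Nanog overlapped, where 29.6% of all genes lay below and 22.6% above. The unadjusted p was below 0.05 for 4 members that were lower (Klf2, Tdgf1, Zfp42, and Sox2), against 11.6% of all genes.

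Klf2 had 48.9 and 46.9 RPKM in controls and 39.5 and 41.2 RPKM in p38-MAPKi at + 10 h (-0.25 ± 0.07, 95% interval -0.40 to -0.09, adjusted p = 0.120). Tdgf1 had 23.1 and 19.6 RPKM in controls and 16.04 and 18.54 RPKM in p38-MAPKi (-0.30 ± 0.11, adjusted p = 0.202). Zfp42 had 77.3 and 75.4 RPKM in controls and 65.5 and 69.8 RPKM in p38-MAPKi (-0.18 ± 0.06, adjusted p = 0.202). Each of these pairs was separate from its controls, by less than the size seen for Klf4 at + 7 h. Sox2 had 39.3 and 40.0 RPKM in controls and 36.3 and 33.3 RPKM in p38-MAPKi (-0.19 ± 0.07, adjusted p = 0.212).

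Klf4 at + 10 h had 19.1 and 21.9 RPKM in controls and 18.1 and 17.3 RPKM in p38-MAPKi (-0.21 ± 0.09, adjusted p = 0.269). The effect of p38-MAPKi on Klf4 was 0.62 ± 0.22 higher at + 10 h than at + 7 h (log2, SE; adjusted p = 0.135 for the interaction in limma) and differed by -0.72 ± 0.33 between + 7 h and + 4 h (adjusted p = 0.661). Neither interaction was called, where 0.00877% and 0.00884% of all genes were, and between + 10 h and + 4 h 0% were (1113 of 11288 genes had an unadjusted p below 0.05). Without p38-MAPKi replicate 2 at + 7 h, the first of these was called (0.83, adjusted p = 0.0159), and without p38-MAPKi replicate 1 at + 7 h it was 0.40 and was not called. The second lay between -0.42 (without p38-MAPKi replicate 1 at + 4 h) and -1.02 (without p38-MAPKi replicate 2 at + 4 h), and was not called with any library left out. Pou5f1, with 397 and 400 RPKM in controls and 362 and 380 RPKM in p38-MAPKi, was below its controls at + 10 h (-0.10, 95% interval -0.25 to 0.04), after lying above them at the earlier times.

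Over the 3 times in one fit, no member was called by limma, where 2.67% of all genes were. The differences of 9 of 10 were below 0 (53.8% of all genes), with a median of -0.25 beside -0.03 for all genes, and Pou5f1 was the exception (0.10, which turned to -0.06 with quantile normalization). The unadjusted p was below 0.05 for 5 lower members (Klf5, Sox2, Klf4, Zfp42, and Prdm14), against 13.9% of all genes. Klf5 (-0.34 ± 0.09, adjusted p = 0.0690) and Sox2 (-0.26 ± 0.08, adjusted p = 0.0875) were nearest to the threshold. They were also the 2 members whose p38-MAPKi libraries lay below the controls at all of the 3 times, which held for 4.29% of all genes. With quantile normalization both passed (Sox2 0.0270, Klf5 0.0492), and with the length trend removed Sox2 did (0.0486). Klf4 (-0.38 ± 0.14, adjusted p = 0.137) passed without p38-MAPKi replicate 1 at + 4 h (0.0464), and its difference lay between -0.49 and -0.27 with one library left out.

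A ratio within one library does not depend on how that library was scaled, so the other 9 members were also set against Pou5f1. Relative to Pou5f1, both p38-MAPKi libraries were below both controls in 8 of 9 members at + 4 h, in 8 of 9 at + 7 h, and in 4 of 9 at + 10 h. Of all genes set against Pou5f1 in the same way, 36.8%, 50%, and 14.3% were below. The exceptions were Klf4 at + 4 h and Tdgf1 at + 7 h, and the 4 at + 10 h were Klf2, Prdm14, Zfp42, and Tdgf1. The log2 ratio of Klf4 to Pou5f1 was -4.33 and -4.44 in controls at + 7 h and -5.63 and -5.15 in p38-MAPKi, a difference of -1.002. That of Nanog was -1.80 and -1.91 in controls and -2.03 and -2.22 in p38-MAPKi, so Nanog was lower against Pou5f1 at + 7 h although it was not lower in RPKM in both libraries. A ratio that is lower says only that the members moved apart, and Pou5f1 itself had its highest values in p38-MAPKi at + 7 h.

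The wider naive network was read from 34 further genes. Of these, 26 passed the filter on low values at + 7 h, and 2 fell in p38-MAPKi, beside 2.13% of all genes called. Tet2, a DNA demethylating enzyme, differed by -1.20 (adjusted p = 0.0456), and Rif1, which acts in replication timing and repair, by -0.9998 (adjusted p = 0.0487). Neither was called without control replicate 2 at + 7 h (adjusted p = 0.303 for Tet2 and 0.384 for Rif1), with median centring (0.0694 and 0.0708), quantile normalization, no filter, no variance trend, or the length trend removed, and Rif1 was not called without control replicate 1 (0.0680). The median of the tested genes in the list was -0.28, with 18 below 0, beside -0.14 and 59.9% for all genes. The 4 most abundant genes were not among those that were lower: Dppa3 (0.94, adjusted p = 0.0559) and Dppa5a (0.63, adjusted p = 0.142) were above 0, and Fbxo15 (0.05) and Dppa2 (-0.0038) were near it. Dppa3 had 1164 and 955 RPKM in controls and 2284 and 1803 RPKM in p38-MAPKi, and the summed level of the list, which Dppa3 and Dppa5a dominate, was 2369 to 2812 RPKM in controls and 3470 to 4125 RPKM in p38-MAPKi. No gene of the list was called at + 4 h or + 10 h, and over all times Rif1 was lower (-0.62, adjusted p = 0.0355), a call made in 11 of 22 alternatives. Rif1 was 1 of the 28 genes of the list tested over all times, near the 2.67% of all genes called. Nr0b1, Nodal, Lefty2, and Lifr stayed below 1 RPKM in every library.

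Genes that come on after the naive state were mostly silent. Of 11 formative and primed genes, 6 stayed below 1 RPKM throughout (Fgf5, Pou3f1, Sox3, Lef1, Zic2, and Sall2), and Lef1 had no read at all. Dnmt3b, a de novo DNA methyltransferase, was the most abundant, with 31.4 and 31.9 RPKM in controls and 12.02 and 13.11 RPKM in p38-MAPKi at + 7 h, and fell by 1.33 (adjusted p = 0.0379). Only 3 genes of the list were tested at + 7 h, and Dnmt3b was the 1 called, beside 2.13% of all genes. Dnmt3b was not called without control replicate 2 (adjusted p = 0.222), with median centring (0.0694), no filter, no variance trend, or the length trend removed (0.0920), and its difference lay between -1.40 and -1.06 over the alternatives. At + 7 h Grhl2 differed by -0.65 (adjusted p = 0.0720) and Dnmt3a by -0.36 (adjusted p = 0.349), and Otx2 was below the filter. Over all times Foxd3 was called as lower (adjusted p = 0.0334), at levels between 0.0222 and 1.90 RPKM, which include placeholders for 0 reads, and this call was made in 13 of 21 alternatives. Foxd3 was 1 of the 5 genes of the list tested over all times, beside 2.67% of all genes called. Of 14 other Klf genes, none was called by limma at any time, Klf6 being the most abundant with a difference at + 7 h of -0.41 (adjusted p = 0.224), beside -0.42 for Klf9, -0.63 for Klf13, and 0.05 for Klf16. Klf1, Klf12, and Klf14 stayed below 1 RPKM.

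Some markers of the other cell types of the blastocyst were called. Of 15 PrE markers, 12 were tested at + 7 h, all 12 were below 0 (median -0.44, beside -0.14 and 59.9% below 0 for all genes), and 2 fell (2.13% of all genes), namely Lrp2 (-1.46, adjusted p = 0.0369) and Dab2 (-1.003, adjusted p = 0.0461), both endocytic proteins. Neither was called without control replicate 2, where the differences were -1.32 for Lrp2 and -1.14 for Dab2. Neither was called with median centring (adjusted p = 0.0694 for both) or with the length trend removed (0.0920 for Lrp2 and 0.114 for Dab2). The same held without the variance trend (0.158 for both) and with no filter (0.0616 and 0.0775). Dab2 was not called with quantile normalization (0.0567) or without control replicate 1 (a difference of -0.86). Gata6 was at -0.47 (adjusted p = 0.143) and Col4a1 at -0.42 (adjusted p = 0.167). The summed level of the list was 315 to 341 RPKM in controls and 193 to 201 RPKM in p38-MAPKi at + 7 h, and 316 to 336 RPKM against 295 to 337 RPKM at + 10 h. Gata6, Lrp2, and Dab2 dominate this sum, with means at + 7 h of 115, 82.8, and 52.4 RPKM in controls and 83.0, 30.0, and 26.1 RPKM in p38-MAPKi. Sox17 (2.83 and 2.37 RPKM), Gata4 (1.81 and 1.15 RPKM), and Pdgfra (8.90 and 6.48 RPKM) add little to it. The part of the TE in these values was not tested. Sox7 and Foxa2 stayed below 1 RPKM. Over all times Lrp2 (-0.86, adjusted p = 0.0237) and the FGF receptor gene Fgfr2 (-0.56, adjusted p = 0.0360) were lower, in 15 and 11 of 22 alternatives. These were 2 of the 12 PrE markers tested over all times, against 2.67% of all genes called.

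Of 14 TE markers, none of the 13 tested at + 7 h was called by limma (median -0.39). An unadjusted p below 0.05 was found for 5 of the 13 that were lower, against 17.7% of all genes. At + 4 h, 12 TE markers were tested, beside 0.909% of all genes called, and Hand1 rose (1.46, adjusted p = 0.00360) and Id2, an inhibitor of bHLH factors, fell (-0.86, adjusted p = 0.00485). Hand1 was low, with 1.26 and 1.67 RPKM in controls and 3.33 and 4.77 RPKM in p38-MAPKi at + 4 h. At + 10 h its p38-MAPKi libraries (0.910 and 0.901 RPKM) were below both controls (1.53 and 1.55 RPKM). Hand1 was called in 6 of 14 alternatives and Id2 in 7 of 15. Without control replicate 1 at + 4 h their adjusted p was 0.564 and 0.458, and Id2 was not called without control replicate 2 (0.229) nor Hand1 without p38-MAPKi replicate 2 (0.165). Over all times Cdx2 (-0.38, adjusted p = 0.0336), Gata3 (-0.51, adjusted p = 0.0169), and Id2 (-0.84, adjusted p = 0.0117) were lower. These were 3 of the 13 TE markers tested over all times, against 2.67% of all genes called. Gata3 and Id2 were called in 22 of 22 alternatives and Cdx2 in 11, and the highest adjusted p for Cdx2 was 0.0939, without p38-MAPKi replicate 2 at + 7 h. The keratin genes Krt8 (0.10) and Krt18 (0.08) were not called over all times. The summed level of the TE list, most of it keratin, was 1873 to 2731 RPKM in controls and 2031 to 2611 RPKM in p38-MAPKi. Elf5 stayed below 1 RPKM. The summed level of the 10 pluripotency factors was 820 to 972 RPKM in controls and 832 to 940 RPKM in p38-MAPKi over all times. Pou5f1 made up the largest part of this sum. In controls against p38-MAPKi the sum was 820 to 972 against 888 to 921 RPKM at + 4 h. The sum was 930 to 971 against 863 to 940 RPKM at + 7 h and 921 to 925 against 832 to 850 RPKM at + 10 h. The part of the other lineages in the values of Klf5 and Pou5f1 was not tested. Of 12 markers of maternal somatic and blood cells, 6 had no read in any library and 9 stayed below 1 RPKM, and the highest, Amhr2, was between 2.49 and 7.37 RPKM.

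**Figure D5:**
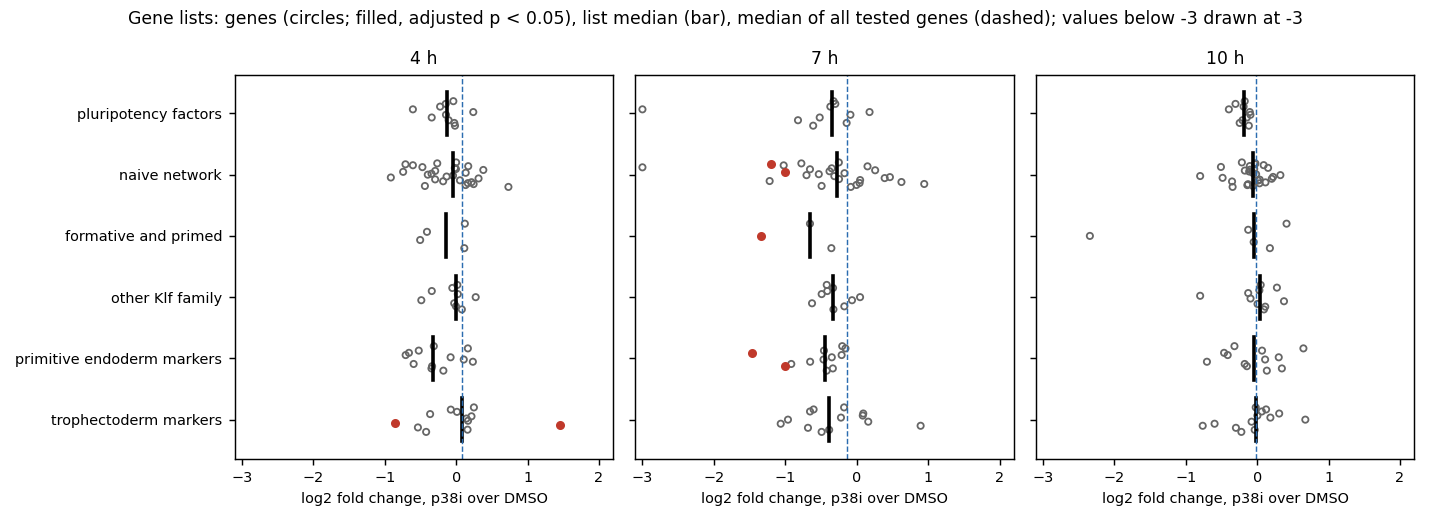
Log2 fold change (p38-MAPKi over control) of the tested genes of 6 lists at 4, 7, and 10 h after E3.5, with genes as circles (filled where called; values below -3 are drawn at -3), the list median as a bar, and the median of all tested genes as a dashed line. At + 7 h the bar of the pluripotency factors is at -0.35, beside -0.44 for the PrE markers and -0.39 for the TE markers, and at + 10 h it is at -0.18.

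The genes most alike to 5 of the members over the 12 libraries were found by the root mean square difference of mean-centred log2 values among 6940 genes of at least 5 RPKM. For Klf4 they were Inf2 (0.088) and Zfp710 (0.091), where the median gene was at 0.33. For Nanog they were Snx5 (0.083) and Atp6v1c1 (0.091), for Pou5f1 Sf3a3 (0.064) and Srrt (0.064), and for Sox2 Vps26a (0.070) and Wtap (0.073). Tdgf1 had no close match: its nearest genes, Ugp2 and Rbms1, were at 0.23 and 0.24. The points share library depth and scaling, so these values are a description.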

How the data were processed

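RNA was measured by mRNA-Seq in 12 libraries, 2 for each of 6 groups. The labels give a replicate number only, and the paper describes the replicates as biological duplicates. The authors trimmed reads with Trim Galore 0.4.1, mapped them to GRCm38 with HISAT2 2.0.5, counted them over genes in SeqMonk 1.45.4 with its GRCm38 annotation (version 90), and deposited log2 RPKM for 34245 genes. The strand option and the handling of reads with several matches are not given in the sources used here. A gene with 0 reads holds the value of 0.9 of a read, which gave each depth. Whole reads were recovered for 34196 genes (99.86%) from the exon lengths of GENCODE M21 or, for 1717 genes, a search over lengths, and were used for Prdm14, depth, and limma-voom. Precision is limited by 2 libraries per group and, for low genes, by reads.

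The deposited log2 values were compared with limma 3.58.1 (lmFit, eBayes with trend) in R 4.3.3, with the libraries of each comparison only. Genes needed at least 1 RPKM in at least 2 libraries, and p-values were adjusted by Benjamini and Hochberg (threshold 0.05). At E3.5 + 4 h for p38-MAPKi, and from + 4 h to + 7 h in controls, limma gave every gene the variance of the trend. Interactions used the 8 libraries of both times. The scripts were tested on simulated data. The alternatives were median centring, quantile normalization, no filter or 10 RPKM, pseudocounts of 0.1 and 5, limma without the trend, all 12 libraries in one fit, a replicate block, a loess correction for length (span 0.5), limma-voom, and leaving out each library. Their use for the called genes of the lists was chosen after seeing the data.

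The members and lists were chosen with earlier results of these data known. Every member is named, as are the called genes of each list (up to 6 per comparison) and its 4 most abundant genes. Genes shown to be below the filter were named after their values were seen. Promoter sequences are from RefSeq. Other steps ran in Python 3.11.15 (scipy 1.17.1, pandas 2.3.3, numpy 2.4.6).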

Additional observations from a re-analysis of the deposited data

How the results depend on the processing

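With 2 libraries in a group, an uncalled difference is not shown to be absent, and the shallow library at + 7 h limits low genes such as Prdm14. Of 1168 recomputed values of the members, 1096 kept their direction and their side of the threshold, 23 passed the threshold where the reported value did not, and 49 turned in sign. A part of these values could not turn in sign. Limma without the trend, no filter, 10 RPKM, all 12 libraries in one fit, and the replicate block leave each difference unchanged. The members that passed were Klf4, Klf5, Esrrb, and Prdm14 for p38-MAPKi at + 7 h, Klf4 for one interaction, Klf4, Klf5, and Sox2 over all times, and Tdgf1, Nanog, Klf2, and Klf4 in controls. The cause was not tested for any of these changes. The differences between replicates 1 and 2 were weakly correlated between groups (-0.163 to 0.139). The highest correlation was that of control with p38-MAPKi at + 10 h. Weak correlations over all genes cannot show whether equal numbers mark paired samples. With the replicate block in limma, Klf4 (-0.82, adjusted p = 0.0142), Esrrb (-0.61, 0.0385), and Klf5 (-0.52, 0.0450) passed at + 7 h.

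The number of genes called by limma was 98 for p38-MAPKi at + 4 h, 233 for p38-MAPKi at + 7 h, 88 for p38-MAPKi at + 10 h, 310 for p38-MAPKi over all times, 53 in controls from + 4 h to + 7 h, 6 in controls from + 7 h to + 10 h, 51 in controls from + 4 h to + 10 h, 1 for the interaction of + 7 h with + 4 h, 1 for the interaction of + 10 h with + 7 h, and 0 for the interaction of + 10 h with + 4 h. With all 12 libraries in one fit it was 2586 for p38-MAPKi at + 7 h, and 0 for p38-MAPKi at + 4 h, for p38-MAPKi at + 10 h, in controls from + 4 h to + 7 h, in controls from + 7 h to + 10 h, in controls from + 4 h to + 10 h, and for the interaction of + 7 h with + 4 h (1211, 611, 312, 215, 792, and 1408 at an unadjusted p below 0.05, in that order). With at least 10 RPKM it was 36 for p38-MAPKi at + 4 h, 947 for p38-MAPKi at + 7 h, 166 for p38-MAPKi at + 10 h, 12 in controls from + 4 h to + 7 h, 276 in controls from + 4 h to + 10 h, and 538 for the interaction of + 10 h with + 7 h, and 0 in controls from + 7 h to + 10 h, and for the interaction of + 7 h with + 4 h (132, and 511 at an unadjusted p below 0.05, in that order). With median centring it was 3 in controls from + 7 h to + 10 h, and 584 for p38-MAPKi over all times, and 0 for p38-MAPKi at + 4 h, for p38-MAPKi at + 7 h, in controls from + 4 h to + 7 h, for the interaction of + 7 h with + 4 h, and for the interaction of + 10 h with + 7 h (1070, 3053, 320, 602, and 2907 at an unadjusted p below 0.05, in that order). With the length trend removed it was 1 for p38-MAPKi at + 7 h, and 208 in controls from + 4 h to + 10 h, and 0 for the interaction of + 7 h with + 4 h (853 at an unadjusted p below 0.05). Without the trend of the variance it was 11 for p38-MAPKi at + 4 h, 9 for p38-MAPKi at + 10 h, 5 in controls from + 4 h to + 7 h, 14 in controls from + 7 h to + 10 h, 26 in controls from + 4 h to + 10 h, 5 for the interaction of + 10 h with + 4 h, and 121 for p38-MAPKi over all times, and 0 for p38-MAPKi at + 7 h, and for the interaction of + 7 h with + 4 h (2629, and 584 at an unadjusted p below 0.05, in that order). With 5 RPKM added it was 647 for p38-MAPKi at + 7 h, 2 in controls from + 7 h to + 10 h, and 31 in controls from + 4 h to + 10 h. Without a filter it was 2 in controls from + 4 h to + 10 h, and 96 for p38-MAPKi over all times, and 0 for p38-MAPKi at + 4 h, for p38-MAPKi at + 7 h, for p38-MAPKi at + 10 h, in controls from + 4 h to + 7 h, in controls from + 7 h to + 10 h, and for the interaction of + 7 h with + 4 h (1238, 3600, 2821, 846, 1008, and 1292 at an unadjusted p below 0.05, in that order). With quantile normalization it was 12 for p38-MAPKi at + 7 h, and 685 for p38-MAPKi over all times, and 0 for p38-MAPKi at + 4 h, in controls from + 4 h to + 7 h, and for the interaction of + 7 h with + 4 h (1147, 327, and 695 at an unadjusted p below 0.05, in that order). With limma-voom it was 1440 for p38-MAPKi at + 7 h, 469 for p38-MAPKi at + 10 h, 190 in controls from + 4 h to + 10 h, 962 for the interaction of + 10 h with + 7 h, and 475 for p38-MAPKi over all times, and 0 for p38-MAPKi at + 4 h, in controls from + 4 h to + 7 h, and for the interaction of + 7 h with + 4 h (972, 267, and 728 at an unadjusted p below 0.05, in that order). With the replicate block it was 2023 for p38-MAPKi at + 7 h, 410 for p38-MAPKi at + 10 h, 28 in controls from + 7 h to + 10 h, 536 in controls from + 4 h to + 10 h, and 189 for p38-MAPKi over all times, and 0 in controls from + 4 h to + 7 h, and for the interaction of + 7 h with + 4 h (426, and 704 at an unadjusted p below 0.05, in that order). Leaving out one library at a time gave 9 to 424 calls for p38-MAPKi at + 4 h, 0 to 2919 calls for p38-MAPKi at + 7 h, 78 to 140 calls for p38-MAPKi at + 10 h, 64 to 589 calls for p38-MAPKi over all times, 10 to 58 calls in controls from + 4 h to + 7 h, 3 to 221 calls in controls from + 7 h to + 10 h, 46 to 1228 calls in controls from + 4 h to + 10 h, 0 to 293 calls for the interaction of + 7 h with + 4 h, 0 to 2905 calls for the interaction of + 10 h with + 7 h, and 0 to 557 calls for the interaction of + 10 h with + 4 h. No member was called in a reported comparison, so no called value of a member could turn its sign. Uncalled values turned as follows. With median centring these were Nanog (0.11), and Klf2 (0.054) for p38-MAPKi at + 7 h, and Pou5f1 (-0.11), Esrrb (-0.12), Prdm14 (-0.078), Zfp42 (-0.00117), and Tdgf1 (-0.00859) in controls from + 4 h to + 10 h. With the length trend removed these were Esrrb (0.066) for p38-MAPKi at + 4 h, and Pou5f1 (-0.015) for p38-MAPKi at + 7 h, and Esrrb (-0.00221) in controls from + 4 h to + 10 h. With 5 RPKM added these were Prdm14 (-0.014) in controls from + 4 h to + 10 h. With quantile normalization these were Pou5f1 (-0.21) for p38-MAPKi at + 7 h, and Pou5f1 (-0.062) for p38-MAPKi over all times, and Pou5f1 (-0.052), Esrrb (-0.12), and Prdm14 (-0.12) in controls from + 4 h to + 10 h. With limma-voom these were Pou5f1 (-0.048), Esrrb (-0.062), and Prdm14 (-0.058) in controls from + 4 h to + 10 h. With one library left out, values that turned ranged as follows. For p38-MAPKi at + 4 h they were Klf2 -0.33 to 0.27, Klf4 -0.41 to 0.19, Esrrb -0.16 to 0.13, Prdm14 -1.29 to 0.073, Zfp42 -0.14 to 0.064, Tdgf1 -0.30 to 0.011, and Nanog -0.32 to 0.029. For p38-MAPKi at + 7 h they were Nanog -0.20 to 0.028. In controls from + 4 h to + 7 h they were Pou5f1 -0.00699 to 0.32, Klf2 -0.082 to 0.52, Sox2 -0.20 to 0.13, Esrrb -0.24 to 0.051, and Prdm14 -0.98 to 0.38. In controls from + 7 h to + 10 h they were Sox2 -0.092 to 0.089, Esrrb -0.036 to 0.24, Zfp42 -0.10 to 0.055, and Klf4 -0.13 to 0.065. In controls from + 4 h to + 10 h they were Pou5f1 -0.14 to 0.19, Esrrb -0.13 to 0.16, Prdm14 -0.62 to 0.74, Tdgf1 -0.030 to 0.29, and Sox2 -0.20 to 0.13. For the interaction of + 10 h with + 4 h they were Klf4 -0.40 to 0.20.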
